A study of Rattus norvegicus with 10 samples.

Results

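Whey RNA of late lactation (d 16 postpartum) was compared with whey RNA of mid lactation (d 9 postpartum) in the same 3 dams, rats of strain F344/N, which gave 6 of the 10 arrays of the series, chosen by their titles. Each dam was milked on both days and each milking had its own array, numbered by dam 1 to 3. No group was treated, but every dam was kept from the litter for some hours, injected with oxytocin and lightly anesthetized for each milking. The other arrays held d 2 whey of the same dams, which enters here as a level and in the estimate of the spread, and 1 pool of serum drawn on d 21.

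Whey is the fluid that remains when fat, cells and casein are removed from milk, and here it had also been passed through fine filters. The secretory epithelium of the mammary gland makes milk proteins, lactose and fat under the control of prolactin, and the gland grows by cell division in pregnancy and early lactation. Milk also carries leukocytes and vesicles shed by the epithelium. In a fluid such as whey, fewer cells of a type and less RNA released per cell cannot be told apart. Markers of luminal epithelium were present on both days, with 12 of 13 tested members well above background on all 6 arrays and a summed linear signal of 41246 to 55576 on d 9 and 41312 to 46153 on d 16. None of the 10 liver markers passed the filter on dim probes.

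The d 9 arrays lay on 1 slide and the d 16 arrays on another, scanned on a later day, so that day of lactation and slide cannot be told apart. The 75th percentile of the processed signal was 21.2, 41.8 and 83.2 on the d 9 arrays of dams 1 to 3, and 21.5, 40.6 and 34.4 on d 16. The d 9 array of dam 3 was thus the brightest. All levels below are log2 normalized signals, and a change is the d 16 mean minus the d 9 mean. Adjusted p-values come from limma over all 16849 probes detected in whey, with a threshold of 0.05. Levels were not compared between probes.

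Of these 16849 probes 239 (1.42%) changed, 95 (0.564%) higher and 144 (0.855%) lower on d 16. The 3 values of d 16 and the 3 of d 9 did not overlap for 29.3% of all probes, 11.7% with d 16 higher and 17.6% with d 16 lower. All 239 changed probes had values without overlap, and such values must move the same way in all 3 dams. Of the 239, 193 differed more than 2-fold and 138 were well above background on all 6 arrays. With dam as a replicate block 117 probes changed, 46 higher and 71 lower. With dam as a block on the 6 arrays alone 0 probes passed the adjusted threshold in limma, while 3279 had an unadjusted p under 0.05. Leaving out 1 array gave 22 called probes without d 16 of dam 3, 35 without d 9 of dam 2, 40 without d 16 of dam 1, 43 without d 9 of dam 3, 75 without d 16 of dam 2 and 79 without d 2 of dam 2. Without d 9 of dam 1 there were 160, of which 91 were lower, and without d 2 of dam 3 there were 178, of which 59 were higher. Of the 24 genes named as the largest rises and falls, 8 passed whichever of the 9 whey arrays was left out, namely Tf, Pcp4, Wfdc2, Csn1s2b, Nes, Hopx, Pttg1 and Ptges. The 24 were ranked among called genes well above background on all 6 arrays, which leaves out larger falls such as Ect2 (-3.64).

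**Figure D1:**
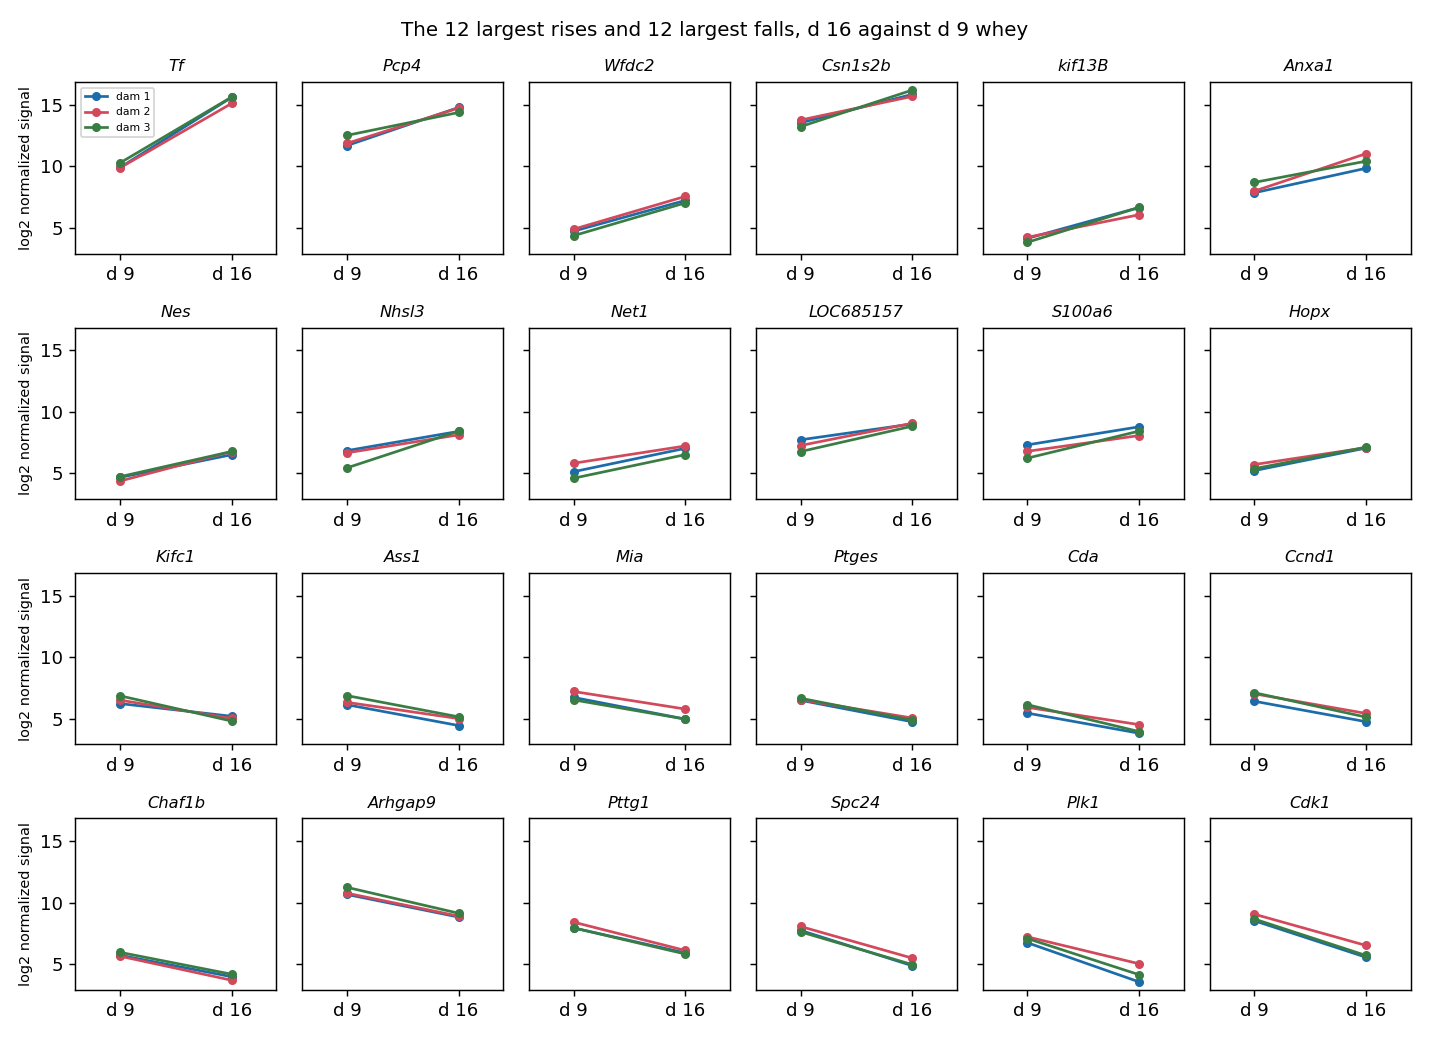
Levels of the 12 largest rises and the 12 largest falls on the log2 normalized scale (y axis) on d 9 and d 16 (x axis). Each line joins the arrays of 1 dam. Tf rose by 5.44. The genes were chosen without overlap between the days, so that the lines of a panel must run the same way.

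Transcripts of secreted milk proteins gave the largest rise. Tf encodes transferrin, the iron carrier of milk and plasma, and its level was 9.92, 9.89 and 10.29 on d 9 and 15.63, 15.14 and 15.66 on d 16 in dams 1 to 3. The lowest d 16 value lay far above the highest d 9 value. Tf rose by 5.44 (SE 0.28), a 43.5-fold difference, with an adjusted p of 0.00119. On d 2 its mean level was 14.29, so that d 9 was the lowest of the 3 days. Csn1s2b encodes a calcium-sensitive casein, and its level was 13.55, 13.78 and 13.24 on d 9 and 15.87, 15.70 and 16.22 on d 16. It rose 5.30-fold (adjusted p 0.00566), from a d 2 mean of 9.40. The probes of these genes lie in rn4 at chr8:108219377-108219436 (Tf) and chr14:21782246-21785778 (Csn1s2b, a span longer than the probe, as the files give it). The 60-base sequences that measured them are shown because both rises rest on 1 probe each, and each has at least 1 reading frame without a stop.
Tf: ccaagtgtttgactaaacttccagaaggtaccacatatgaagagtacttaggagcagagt
Csn1s2b: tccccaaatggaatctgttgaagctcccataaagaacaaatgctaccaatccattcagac

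Of 15 milk protein transcripts tested 2 rose and 0 fell, where 0.564% of all probes rose. Their median change was 0.42 against -0.06 over all probes. Without d 9 of dam 3 the medians were 0.15 and -0.02. The other caseins did not pass, but their signals were among the brightest, where quantile normalization gives every array the same few values and a change is a change of rank. Csn1s1 read 18.04 on both days in dams 1 and 2, and only dam 3 differed, so that its value cannot show whether it changed. Csn2 had a change of 0.45 (adjusted p 0.24), Csn3 of 0.26 (0.53) and Csn1s2a of 0.42 (0.39). Lalba encodes alpha-lactalbumin, which turns galactosyltransferase into lactose synthase. Its level was 16.34 ± 0.31 (SD, n = 3) on d 9 and 17.38 ± 0.18 on d 16, with an adjusted p of 0.0556, and 0.0486 with dam as a block. Wap, the whey acidic protein, had a change of 0.34 and Glycam1, a mucin-like whey protein, of -0.55, neither past the threshold and both among these brightest signals. Of the 12 lactose synthesis transcripts, 10 milk fat globule membrane transcripts, 25 of fatty acid and triglyceride synthesis and 19 of cholesterol synthesis, 1 rose. This was Mfge8, a lactadherin of the fat globule and of vesicles, which rose by 1.24 (adjusted p 0.0319, and 0.0575 with dam as a block).

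The promoter of Csn1s2b is shown from 250 bases before the gene's start in RefSeq's GRCr8 assembly, chr14:20545619-20545868 on the minus strand, because milk protein promoters are known to bind STAT5. Capitals mark the 1 match to TTCNNNGAA, a motif that reads the same on both strands.
Csn1s2b promoter: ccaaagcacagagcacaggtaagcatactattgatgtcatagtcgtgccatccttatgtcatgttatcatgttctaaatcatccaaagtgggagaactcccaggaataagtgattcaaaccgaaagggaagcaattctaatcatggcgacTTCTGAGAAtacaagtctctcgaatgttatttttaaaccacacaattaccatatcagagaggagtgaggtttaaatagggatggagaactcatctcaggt
The motif stood in 6 of 14 milk protein promoters (42.9%) and in 8.9% of all 33469 promoters of 300 bases. A match describes letters only, and nothing was measured at these promoters.

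Further rises stood in the list of calcium handling. Pcp4 encodes a small regulator of calmodulin, and its level was 11.70, 11.88 and 12.53 on d 9 and 14.80, 14.75 and 14.39 on d 16, a 6.12-fold rise (adjusted p 0.00848). Its d 2 mean was 8.41, so that the level was higher on each later day. Car2, carbonic anhydrase 2, rose by 1.57 (adjusted p 0.0173), and the calcium-binding S100a6 by 1.65 (adjusted p 0.0452, and 0.0644 with dam as a block), while the other S100a6 probe had a change of -0.05. Of 18 transcripts of calcium handling 3 rose and 0 fell, where 0.564% of all probes rose. The list was chosen with earlier results of these data known. With 1 array left out, S100a6 was called in 1 of 9 fits. The calcium pumps did not pass, with Atp2b2 at 0.32 and Atp2c1 at 0.20. Of 11 iron handling transcripts only Tf was called, and Tfrc, the transferrin receptor, had a change of -0.14. Values without overlap were higher on d 16 for 5 of the 11 and lower for 1, where 11.7% and 17.6% of all probes had them.

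Among the other large rises, Wfdc2, a protease inhibitor-like protein with WAP domains, was 4.73, 4.89 and 4.36 on d 9 and 7.23, 7.56 and 7.03 on d 16, a 6.12-fold rise. It was the 1 called member of 12 WAP domain and antimicrobial transcripts, where 0.564% of all probes were called higher. Anxa1 and Anxa2 encode annexins, which bind phospholipid membranes. Anxa1 rose by 2.26 (adjusted p 0.0362) and Anxa2 by 1.62 (0.0297). Nes (nestin, an intermediate filament protein) rose by 2.10 and Hopx, a homeodomain protein, by 1.65, each with an adjusted p of 0.00566. Hopx was 5.21, 5.70 and 5.37 on d 9 and 7.04, 7.07 and 7.11 on d 16. The serum pool, on the slide of the d 16 arrays, read 8.64 for Hopx, 6.16 for Nes, 12.30 for S100a6 and 10.78 for LOC685157, which rose by 1.73 in whey. Among other rises the pool read 10.45 for Anxa1, 2.41 for Wfdc2, 1.16 for Net1 and 1.24 for Nhsl3. Among falls it read 9.99 for Pttg1, 8.11 for Cdk1, 7.76 for Ccnd1 and 1.30 for Cda. The part of serum in these values was not tested. kif13B, a kinesin motor, rose by 2.40 (adjusted p 0.00887). Net1 rose by 1.74 and Nhsl3 by 2.01 (adjusted p 0.0475, and 0.0946 with dam as a block). With 1 array left out, kif13B was called in 8 of 9 fits, LOC685157 in 4, Anxa1 and Net1 in 1 each and Nhsl3 in 0.

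The largest group of falls was transcripts of cell division. Mitosis is driven by Cdk1 with its cyclins, the kinases Plk1 and Aurora, the spindle checkpoint and the anaphase-promoting complex. Of 36 mitosis transcripts tested 22 fell and 0 rose, where 0.855% of all probes fell. The median change was -2.24 against -0.06 over all probes, and 35 of the 36 changes were negative. The exception was Incenp, at 0.49. Most of the 36 passed the filter on dim probes through d 2 or d 9, where they were high, so that the count of negative changes and the median describe these probes and support no more. When each of the 9 whey arrays had to be well above background, 8 transcripts were left, of which 7 fell and 1 rose, with a median of -1.81. With dam as a block 16 of the 36 fell, and the count was 4 without d 16 of dam 3, 5 without d 9 of dam 2, 6 without d 9 of dam 3, 8 without d 16 of dam 1 and 14 without d 2 of dam 2. All 36 had a higher mean on d 2 than on d 9.

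Cdk1, named Cdc2 on the array, was 8.52, 9.06 and 8.66 on d 9 and 5.55, 6.51 and 5.69 on d 16. Its level was 7.11-fold lower on d 16 (adjusted p 0.0182), after a d 2 mean of 10.34. Plk1, the mitotic polo-like kinase, was 6.73, 7.21 and 7.07 on d 9 and 3.54, 5.02 and 4.12 on d 16 (adjusted p 0.0281, and 0.0529 with dam as a block). Spc24 is a subunit of the kinetochore complex NDC80, and fell by 2.71 on the log2 scale (adjusted p 0.00848). Pttg1 (securin) was 7.93, 8.40 and 7.93 on d 9 and 5.90, 6.10 and 5.81 on d 16 (adjusted p 0.00566).

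Of the 22 called mitosis transcripts 6 were well above background on all 6 arrays, 7 on 1 or 2 of the d 16 arrays and 9 on none of them, so that for most of them the d 16 level is only a limit. Ccnb1, cyclin B1, was 5.69, 5.87 and 5.50 on d 9 and not well above background on d 16. It was at least 7.32-fold lower on d 16. The bounds were at least 4.67-fold for Ttk, a checkpoint kinase, 4.42-fold for Spc25, 3.82-fold for Bub1b, another checkpoint kinase, and 3.19-fold for Knstrn, a spindle protein named Traf4af1 on the array. These 5 genes and 1 probe without a gene name were the 6 probes that on all 3 arrays of d 9 had a processed signal above 20 and were well above background, and on none of d 16 were, and 0 probes had the opposite pattern. Normexp background correction with an offset, which raises dim signals, called 21 mitosis transcripts, 18 of them among the 22, with a median change of -0.40.

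**Figure D2:**
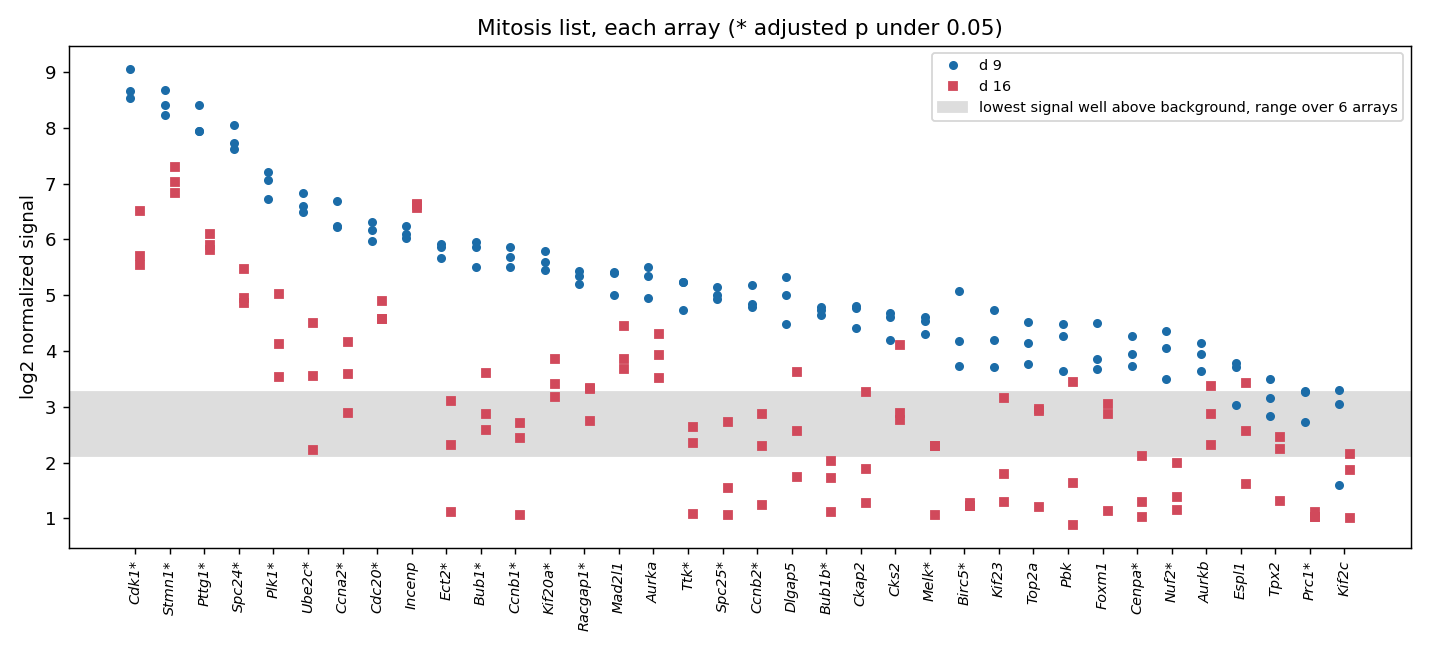
Log2 normalized signal (y axis) of the 36 tested mitosis transcripts (x axis), ordered by their d 9 mean, on each of the 3 d 9 arrays (circles) and 3 d 16 arrays (squares). The grey band is the range over the 6 arrays of the lowest signal well above background, 2.12 to 3.27, and many d 16 values lie in or under it.

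The probes that measured Cdk1 and Ccnb1 lie in rn4 at chr20:20043755-20043814 and chr2:31574809-31575048. They are shown as a cyclin and kinase pair of the mitosis list. With 1 array left out, Cdk1 was called in 5 of 9 fits.
Cdk1: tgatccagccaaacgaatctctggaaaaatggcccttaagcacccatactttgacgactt
Ccnb1: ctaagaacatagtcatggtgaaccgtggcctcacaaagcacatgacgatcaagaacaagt
Promoters of mitosis genes are known for CCAAT boxes and for the cell cycle homology region, searched here as TTTGAA or TTCGAA. Both strands were searched in the 300 bases around each gene's start, and motifs that shared letters were counted separately. RefSeq's table held promoters of 19 of the 22 called mitosis transcripts. TTTGAA or TTCGAA stood in 13 of the 19 (68.4%) against 19.7% of all promoters, and CCAAT in 15 (78.9%) against 37.5%. Both stood in 11 (57.9%) against 8.0%. The 250 bases before the start of Cdk1 (GRCr8 chr20:19265043-19265292, plus strand) and Ccnb1 (chr2:33655226-33655475, minus strand) are shown with these motifs in capitals.
Cdk1 promoter: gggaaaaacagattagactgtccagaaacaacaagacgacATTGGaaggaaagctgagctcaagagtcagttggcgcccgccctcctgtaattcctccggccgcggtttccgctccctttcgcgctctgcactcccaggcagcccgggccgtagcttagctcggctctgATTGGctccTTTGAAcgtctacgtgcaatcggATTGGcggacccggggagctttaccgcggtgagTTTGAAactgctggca
Ccnb1 promoter: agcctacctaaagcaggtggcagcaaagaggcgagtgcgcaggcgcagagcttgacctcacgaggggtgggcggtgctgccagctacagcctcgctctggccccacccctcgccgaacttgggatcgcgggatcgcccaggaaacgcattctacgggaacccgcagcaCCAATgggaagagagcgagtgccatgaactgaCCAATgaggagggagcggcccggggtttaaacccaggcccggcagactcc
Cdk1 held 2 matches to the first motif and 3 to CCAAT, and Ccnb1 held 0 and 2. These are matches of letters, and nothing was measured at these promoters.

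Of 39 DNA replication transcripts tested 3 fell and 0 rose, where 0.855% of all probes fell. The median was -0.98 against -0.06 over all probes, and 37 changes were negative. All 39 had a higher mean on d 2 than on d 9, and a probe could pass the filter on dim probes through any whey day. The count of negative changes and the median thus describe these probes and support no more. On d 16 only 20 of them stood well above background in all 3 dams, so that this median rests partly on dim values. A filter that asked this of each of the 9 whey arrays left 20 transcripts, of which 6 fell, with a median of -0.56. After normexp correction the median of the 39 was -0.19. Chaf1b, a chromatin assembly subunit, was 5.71, 5.63 and 5.94 on d 9 and 3.96, 3.67 and 4.16 on d 16 (adjusted p 0.0320, and 0.0714 with dam as a block). Asf1b, a histone chaperone, fell by 1.61 on the log2 scale (adjusted p 0.0319, and 0.0764 with dam as a block) and was well above background on none of the d 16 arrays. With dam as a block 1 of the 39 fell, and 0 without d 9 of dam 2, d 9 of dam 3, d 16 of dam 1 or d 16 of dam 3. The count was 1 without d 16 of dam 2 or d 2 of dam 2, 7 without d 2 of dam 3 and 9 without d 2 of dam 1. Mcm2, Mcm4 and Mcm5, subunits of the replicative helicase, had changes of -1.62, -0.88 and -1.39 and did not pass. They were well above background on 2, 1 and 1 of the d 9 arrays and on 1, 0 and 0 of the d 16 arrays. Their changes are thus differences between dim values.

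Outside the division lists, Ccnd1, cyclin D1 of the G1 phase, was 6.41, 7.02 and 7.11 on d 9 and 4.75, 5.42 and 5.12 on d 16 (adjusted p 0.0248, and 0.0508 with dam as a block). Ptges, the inducible prostaglandin E synthase, was 6.49, 6.54 and 6.66 on d 9 and 4.74, 5.04 and 4.87 on d 16, a 3.19-fold fall (adjusted p 0.00566). Arhgap9, a GTPase-activating protein, fell by 1.94 (adjusted p 0.0169). Cda, cytidine deaminase, fell by 1.74 (adjusted p 0.0344, and 0.0765 with dam as a block), Mia by 1.59 and the kinesin Kifc1 by 1.53 (adjusted p 0.0281, and 0.0710 with dam as a block). Of 11 transcripts of arginine and polyamine metabolism 1 fell and 1 rose, where 0.855% of all probes fell and 0.564% rose. Ass1, argininosuccinate synthase, was 6.13, 6.32 and 6.87 on d 9 and 4.43, 5.00 and 5.14 on d 16 (adjusted p 0.0362). With 1 array left out, Mia and Ass1 were each called in 1 of 9 fits, and Cda and Kifc1 in 3. Ccnd1 was called in 4, Arhgap9 in 5 and Ptges in 9. Sat1, which acetylates spermidine and spermine, rose by 1.07 (adjusted p 0.0492, and 0.0764 with dam as a block).

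Immune transcripts stood mostly above 0 with few calls. Of 18 macrophage markers 11 were tested and 1 rose, where 0.564% of all probes rose. This was Ctss, a lysosomal protease, by 0.84 (adjusted p 0.0492, and 0.0821 with dam as a block). Of the 11 changes 10 were positive, with a median of 1.15. The summed linear signal of the 11 markers was 2004, 1487 and 1033 on d 9 and 3170, 4292 and 3235 on d 16, without overlap. Single probes without overlap and higher on d 16 made up 11.7% of all probes. Adgre1, which defines the type, was well above background on 1 array of each day, and its means lay under the lowest signal well above background. The level of Cd68, another marker, was 4.44 on d 9 and 5.46 on d 16. Fcer1g, an Fc receptor chain, had a change of 1.91 (adjusted p 0.063). With dam as a block 0 of the 11 passed. Of 10 complement transcripts 0 passed (median 0.73), with C1qb at 1.47, C1qa at 1.26 and C1qc at 1.21. These changes were largest in dam 3. Within dams 1 to 3 they were 0.68, 1.27 and 2.47 for C1qb and 0.65, 1.02 and 2.12 for C1qa. For C1qc they were 0.65, 0.83 and 2.15. Of 19 transcripts of MHC and antigen presentation 1 rose, again Ctss, and Cd74 had a change of 1.35. Of 22 involution and lysosomal protease transcripts Ctss and Anxa1 rose, and Ctsd had a change of 1.40 and Ctsb of 1.16. The 9 myoepithelial markers, from keratins to smooth muscle proteins, had a median of 1.05 with 9 positive changes and 0 calls, and a summed signal of 1585, 1755 and 324 on d 9 and 2465, 1739 and 2480 on d 16. Without d 9 of dam 3 their median was 0.32. Of 17 T and NK cell markers 4 were tested and 0 passed, and their summed signal was 141, 111 and 82.3 on d 9 and 213, 172 and 204 on d 16. Of 10 erythroid markers 1 was tested, Hba-a1, an alpha globin, which had a change of 1.10 without a call, with a linear signal of 85.1, 134 and 107 on d 9 and 177, 289 and 235 on d 16. Neither overlapped between the days, as was so for 11.7% of all probes with d 16 higher. On the log2 scale the serum pool read 18.04 for Hba-a1. Of 8 platelet markers 1 was tested, Pf4, for which the pool read 16.09. Pf4 had a change of -1.24 without a call. Its values did not overlap, as was so for 17.6% of all probes with d 16 lower. The 6 neutrophil, 5 adipocyte and 4 stroma and endothelium markers tested had medians of 0.77, -0.29 and -0.58 and 0 calls. The part of macrophage, lymphocyte, red cell or myoepithelial RNA in the rises was not tested.

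**Figure D3:**
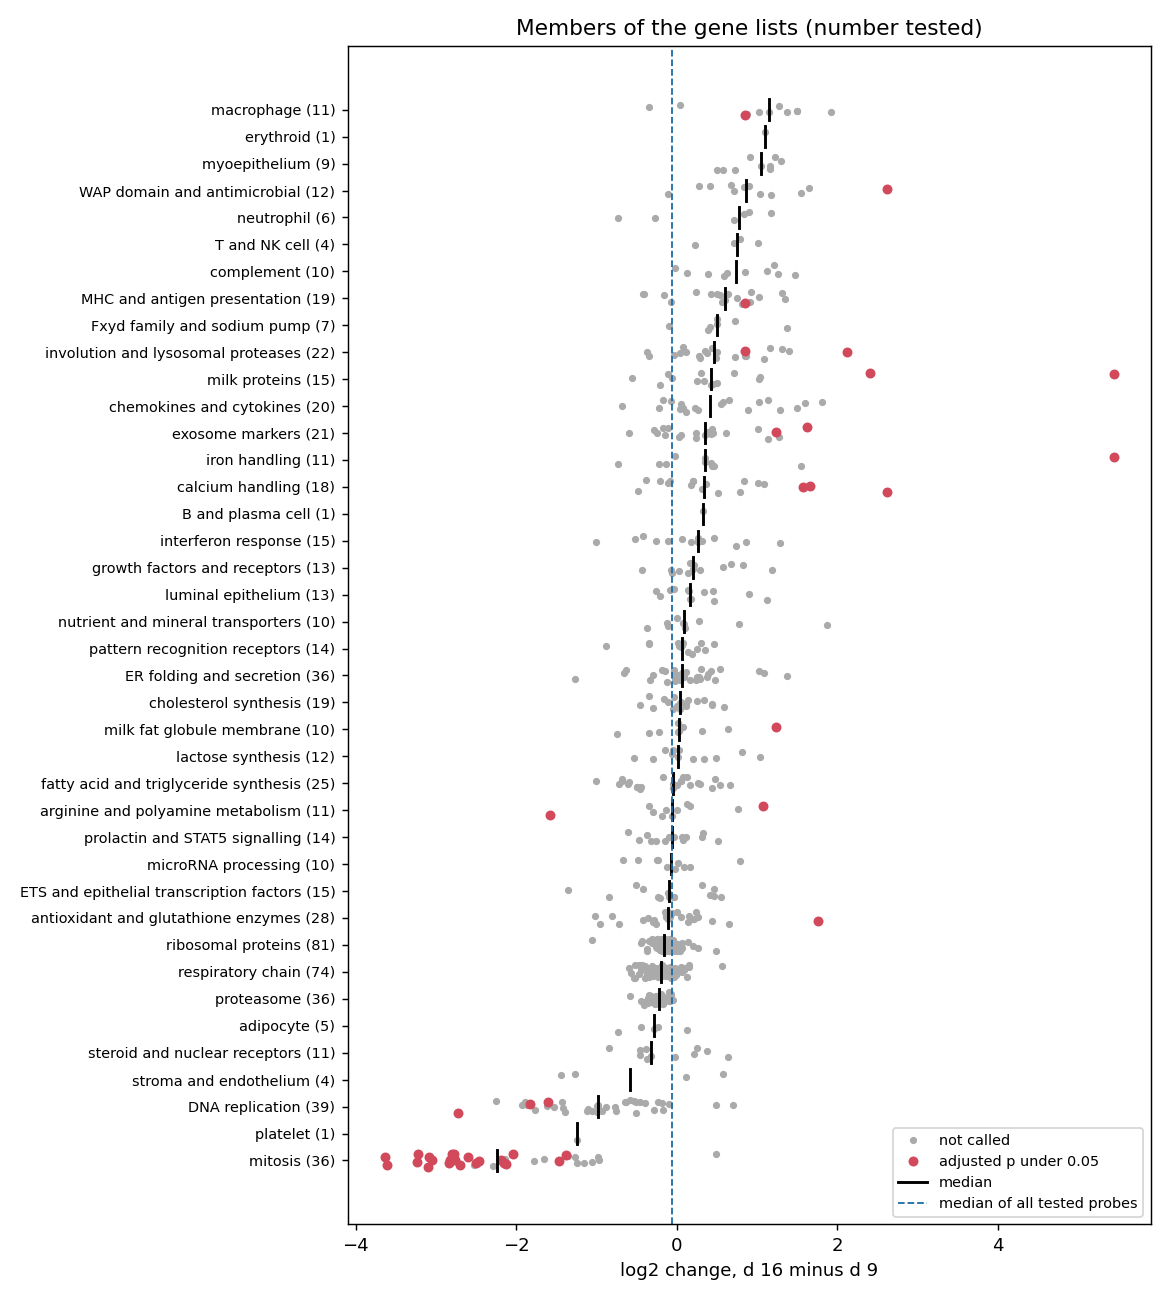
Change from d 9 to d 16 on the log2 scale (x axis) of each tested member of the gene and marker lists (y axis, number tested in brackets). Each point is 1 gene, red where its adjusted p was under 0.05, the black bar is the list's median and the dashed line the median of all probes, -0.06. Mitosis stands lowest at -2.24.

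Of 81 ribosomal protein transcripts, 74 of the respiratory chain and 36 of the proteasome, 0 passed in limma, with medians of -0.16, -0.20 and -0.22 against -0.06 over all probes. An unadjusted p under 0.05 was found for 8, 20 and 8 of them. Values without overlap and lower on d 16 were found for 28, 32 and 14, where 17.6% of all probes had them. Over the 23 alternatives up to 16, 20 and 5 were called, and in each of them the 3 medians lay under that of all probes. All 36 proteasome changes were negative, between -0.59 and -0.05. Of 36 transcripts of protein folding and secretion, 14 of prolactin and STAT5 signalling, 10 of microRNA processing and 15 of ETS and epithelial transcription factors 0 were called. Over the 23 alternatives up to 5, 0, 1 and 2 of them were called. Hsp90b1, of the folding list, had a change of 1.37 without overlap (adjusted p 0.10). The lack of a call does not show the lack of a change. Stat5a and Prlr gave no call, with Prlr at -0.26. Of 28 antioxidant enzymes 1 was called, where 1.42% of all probes were called. Mgst2, a microsomal glutathione transferase, rose by 1.75 (adjusted p 0.0297), from 1 of 3 arrays above background on d 9 to 3 of 3 on d 16.

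These directions are relative to the array as a whole. Scaling to spike-in control RNA placed the median of all probes at -0.91 rather than -0.06, and called 4 probes higher and 151 lower, 2.58% higher against 39.7% with quantile normalization. Relative to that median the mitosis list stood at -2.24 and the milk proteins at 0.66. Of the 12 largest rises Tf alone still passed with spike-in scaling.

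**Figure D4:**
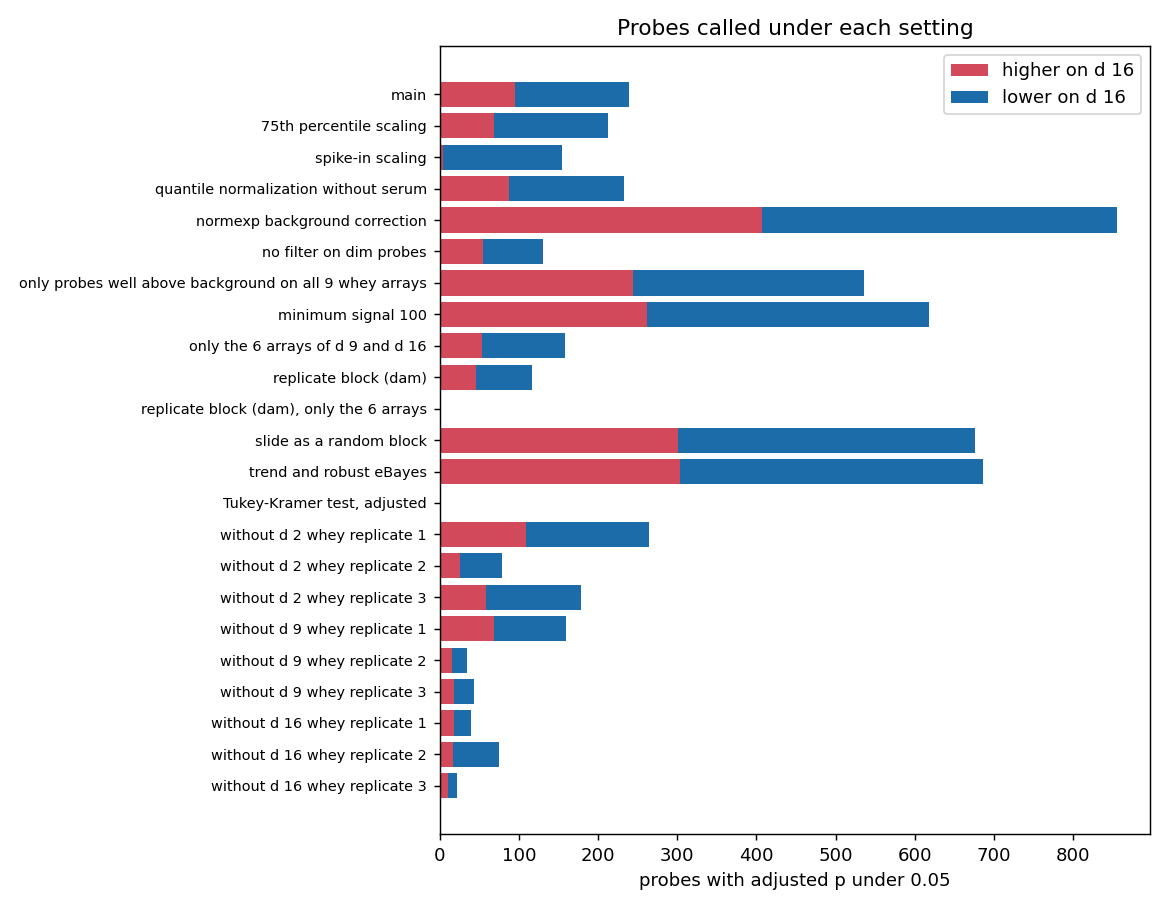
Number of probes with an adjusted p under 0.05 (x axis) under each setting (y axis), higher on d 16 in red and lower in blue. The counts ran from 0 to 855 around the 239 of the reported setting.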

How the data were processed

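The authors extracted total RNA from whey, amplified 100 ng of it per array, labelled the cRNA with Cy3 and hybridized it to 1-colour Agilent rat arrays with 60-base probes. The deposited values are intensity values made with Agilent Feature Extraction 9.5.3.1: the processed signal, from which local background has been subtracted and which is not normalized between arrays, and the mean spot and median background intensity. The flags deposited with them are other values of 0 or 1. The authors' quantile-normalized log2 table was not used, since its 10 sample columns match no label.

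Here log2 processed signals of non-control spots were quantile normalized over all 10 arrays, outlier spots were set to missing and spots of a probe averaged. Probes well above background with a signal above 20 on at least 1 whey array were tested (16849 of 41012). The 9 whey arrays were fitted with limma 3.58.1 in R 4.3.3 (1.83 prior degrees of freedom), with Benjamini-Hochberg adjustment at 0.05. The alternatives are in the closing section. The number of arrays limits the precision. The spread is that between 3 dams.

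Groups and dams came from the titles. Same-numbered samples came from the same dam. Deviations from the day means of d 9 and d 16 correlated at 0.218, 0.118 and 0.0217 for dams 1 to 3, and between -0.254 and 0.158 for different dams. Named genes were, for rises and for falls, the 12 with the greatest change among called probes with a symbol, well above background on all 6 arrays and without overlap, the first 3 tested and up to 6 changed members of each list, and the 5 largest bounds each way among probes measured on 1 day alone. A list gene was represented by its probe well above background on most whey arrays. A probe not well above background on an array entered a bound at the lowest signal of any probe that was. The members and lists were chosen with earlier results of these data known. The values of 1 called list member are not reported here. Coordinates of probes are those of the files (rn4). Current names came from RefSeq accessions in GRCr8, of which 16815 of 20503 matched, and promoters from RefSeq. The fit was tested on simulated data for this comparison with 200 changed probes among 16849, where 30.4% of 69 changes of 1, 71.8% of 71 changes of 2 and 86.7% of 60 changes of 3 on the log2 scale were called.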

Additional observations from a re-analysis of the deposited data

How the results depend on the processing

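The 24 genes with the largest rises and falls kept their direction in all 550 refits under the 23 alternatives. They were chosen as called and without overlap between the days, and several refits share the same day means. Their direction could thus hardly change, and its stability supports no more. In 365 refits the 24 genes were past the threshold. Against 239 called probes (95 higher, 144 lower), 855 (407 and 448) were called after normexp correction, 131 (55 and 76) with no filter on dim probes, 536 (244 and 292) when each of the 9 whey arrays had to be well above background, 618 (262 and 356) with a minimum signal of 100, 676 (301 and 375) with slide as a random block (estimated correlation -0.0807) and 686 (304 and 382) with trend and robust eBayes. Spike-in scaling called 155 (4 higher) and the 6 arrays alone 158 (54 higher). The replicate block of dams called 117 (46 and 71), and 0 with only the 6 arrays, where 3279 had an unadjusted p under 0.05. The methods' Tukey-Kramer test gave 2050 (781 and 1269) unadjusted and 0 after Benjamini-Hochberg adjustment. Leaving out 1 array gave 22 to 264 probes, 10 to 109 higher and 12 to 155 lower. Of 690 list genes 38 were called, against 103 with normexp, 21 with no filter, 73 with a minimum signal of 100, 78 with slide as a random block, 102 with trend and robust eBayes, 156 and 0 with Tukey-Kramer before and after adjustment, 0 in the replicate block with 6 arrays, and 8 to 46 with 1 array left out. Probes measured on d 9 alone numbered 6, against 0 with a minimum signal of 100 and 6 to 58 with 1 array left out, and on d 16 alone 0, against 0 to 7 with 1 array left out. The causes were not tested. Dim signals limit the size of most falls in the mitosis list.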
